A study of Mus musculus with 24 samples.

Results

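The 9 genes described here mark newborn neurons, neuronal progenitors and dividing cells: Dcx, Sox11, Sox4, Dlx1, Dlx2, Dlx5, Mki67, Top2a and Nes. They were taken as every probe set whose single gene symbol was one of these names, which gave 28 probe sets of the 45101 on the array and 9 of 18194 named genes. Each gene was read from its brightest probe set, the one with the highest mean over all arrays. Whole-brain RNA of mice aged 4 months had been hybridised to 24 Affymetrix arrays. There were 4 groups of 6 samples each, named in the labels as wild type (wt), aSYN alone, Hsp70 alone and the 2 combined (aSYN/Hsp70). No label writes aSYN in full; it is read here as alpha-synuclein, the protein that aggregates in Parkinson's disease. Hsp70 is a chaperone that binds misfolded proteins. Strain, promoter and type of allele are not given in the sources used here. Whether each sample was its own animal is not stated either, and p-values therefore reflect sample-to-sample spread that may be technical.

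In the adult mouse brain, new neurons arise in the subventricular zone and in the dentate gyrus. Cells born in the subventricular zone migrate to the olfactory bulb and become inhibitory interneurons. Progenitors carry nestin and divide, DLX factors direct the interneuron fate, and doublecortin and the SOXC factors SOX4 and SOX11 mark the cells as they migrate and mature. In bulk RNA, fewer cells of a type and less RNA per cell cannot be told apart.

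Array medians ran from 458 to 893 intensity units. On the 4 arrays with limma weights under 0.5 the values departed most from the fit: aSYN/Hsp70 replicates 4 (weight 0.124) and 3 (0.394), and Hsp70 replicates 3 (0.251) and 6 (0.332). By Xist and Y-linked probe sets, males made up 2 of 6 wt samples, 2 of 6 aSYN samples, 3 of 6 Hsp70 samples and 4 of 6 aSYN/Hsp70 samples. The 4 probe sets of Hspa1a and Hspa1b, the mouse inducible Hsp70 genes, differed by -0.14 to 0.26 on the log2 scale between Hsp70 and wt, and by -0.49 to 0.60 between aSYN/Hsp70 and aSYN, and therefore give no check of the Hsp70 label. All 7 mature neuron markers and all 8 astrocyte markers passed the filter on dim probe sets.

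The promoters of 3 transcription factor genes are shown first, because Sox4 and Sox11 belong to one family, SOXC, yet had r = 0.00 with each other across arrays, and Dlx2 was 1 of the 2 among the 8 tested members whose brightest probe set had an unadjusted p under 0.05 in any comparison. Each is the 250 bases before the RefSeq gene start in GRCm38.p6, 5′ to 3′ on the gene's strand, which is the minus strand for all 3. Capitals mark matches on either strand to 2 common promoter motifs. The CCAAT box was searched by the letters CCAAT. The GC box was searched by the letters GGGCGG.
Sox4, chr13:28953700-28953949: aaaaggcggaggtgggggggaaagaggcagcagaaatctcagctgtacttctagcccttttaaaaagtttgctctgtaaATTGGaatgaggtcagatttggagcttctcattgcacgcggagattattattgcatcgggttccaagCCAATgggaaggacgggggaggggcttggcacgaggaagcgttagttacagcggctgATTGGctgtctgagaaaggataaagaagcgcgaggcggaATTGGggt
Sox11, chr12:27342719-27342968: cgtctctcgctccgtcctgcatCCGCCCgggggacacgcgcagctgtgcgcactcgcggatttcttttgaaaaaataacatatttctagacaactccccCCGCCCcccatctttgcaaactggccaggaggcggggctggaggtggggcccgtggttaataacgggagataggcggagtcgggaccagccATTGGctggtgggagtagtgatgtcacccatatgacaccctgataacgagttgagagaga
Dlx2, chr2:71546755-71547004: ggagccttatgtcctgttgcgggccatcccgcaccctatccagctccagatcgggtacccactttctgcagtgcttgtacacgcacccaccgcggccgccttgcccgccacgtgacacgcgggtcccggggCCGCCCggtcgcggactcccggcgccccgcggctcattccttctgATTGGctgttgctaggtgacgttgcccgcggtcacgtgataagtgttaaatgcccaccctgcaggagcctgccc
The Sox4 window held 4 CCAAT matches and 0 GGGCGG. The Sox11 window held 1 CCAAT and 2 GGGCGG matches, and the Dlx2 window held 1 of each. No match overlapped another. Of 32851 windows of this length, 33.8% held CCAAT and 32.7% held GGGCGG on either strand. The letters TATAAA (in 12.4% of windows), the homeodomain core TAATTA (4.84%) and the SOX core AACAAT (9.42%) were searched on both strands too, and were not among the letters of these 3 windows. The arrays measure RNA and do not read binding at these promoters.

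None of the 8 members that could be tested differed between groups in limma at an adjusted p of 0.05, in any of the 6 comparisons. Mki67 lay below the filter, which removed the dimmest 40% of probe sets, those at or below 8.13 log2 units. Top2a, at a mean of 8.16 over all arrays, lay just above it. Over all 27022 probe sets tested, 0.0037% were called for aSYN versus wt, 0% for Hsp70 versus wt, 0% for aSYN/Hsp70 versus wt, 0.718% for aSYN/Hsp70 versus aSYN, 0% for aSYN/Hsp70 versus Hsp70 and 0% for the interaction. The interaction subtracts the aSYN difference seen without Hsp70 from that seen in its presence. At an unadjusted p under 0.05, the limma fit held 0, 2, 0, 0, 0 and 0 of the 8 members in these comparisons, against 1398, 1305, 3922, 5303, 2599 and 2198 of all probe sets. The 2 members were Dlx2 and Top2a, in Hsp70 versus wt. Mki67, below the filter, is not in these counts. In a limma fit without the filter its unadjusted p was under 0.05 in each comparison of aSYN/Hsp70 with another group and in the interaction. In 0 of the 5 pairs of groups did the 6 samples of one group lie wholly above or below those of the other for any of the 9 genes. Among all probe sets tested, 1.17% were so separated for aSYN versus wt, 0.27% for Hsp70 versus wt, 0.888% for aSYN/Hsp70 versus wt, 2.05% for aSYN/Hsp70 versus aSYN and 0.311% for aSYN/Hsp70 versus Hsp70.

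**Figure D1:**
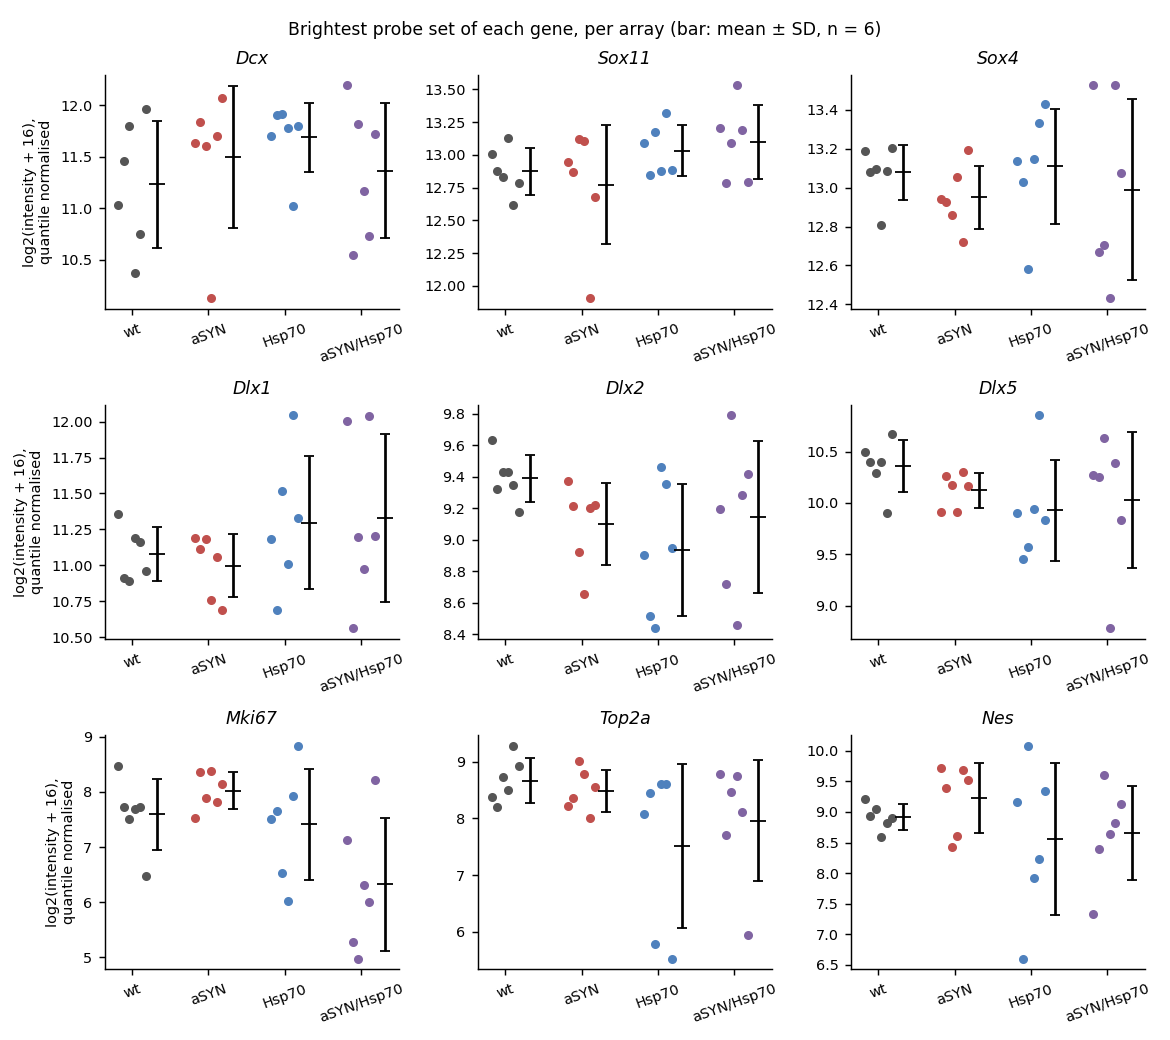
Log2(intensity + 16) after quantile normalisation of the brightest probe set of each of the 9 genes, 1 point per array in 4 groups, with the mean ± SD (n = 6) beside the points; each panel has its own vertical scale, which does not start at 0. The groups overlap in every panel, and Mki67 and Top2a show the lowest points in Hsp70 and aSYN/Hsp70.

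The 8 tested members differed in both directions. Their median log2 difference was -0.11 for aSYN versus wt, where 2 were higher and 6 lower, against -0.00018 over all probe sets tested. It was -0.16 for Hsp70 versus wt (4 higher, 4 lower) and -0.17 for aSYN/Hsp70 versus wt (3 higher, 5 lower), against -0.017 and -0.037 over all probe sets. For aSYN/Hsp70 it was -0.03 versus aSYN (4 higher, 4 lower) and 0.08 versus Hsp70 (6 higher, 2 lower), against -0.031 and -0.013. For the interaction it was 0.14 (6 higher, 2 lower), against -0.018. Comparisons that share a group share its arrays. The 95% interval of a difference between 2 groups reached 0.35 log2 units to each side for Sox4, the narrowest, and 1.08 for Top2a, the widest. These intervals are not adjusted for the number of probe sets tested, and a difference whose interval leaves out 0 can still miss the threshold, as those of Dlx2 and Top2a did in Hsp70 versus wt.

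Mki67 and Top2a belong to dividing cells. Mki67 encodes Ki-67, a protein of proliferating cells that coats mitotic chromosomes, and was read from probe set 1426817_at. Its level ran from 6.47 to 8.46 log2 units in wt (median 7.71), from 7.52 to 8.38 in aSYN (median 8.02), from 6.02 to 8.84 in Hsp70 (median 7.58) and from 4.98 to 8.22 in aSYN/Hsp70 (median 6.16). The aSYN/Hsp70 samples were lowest on average, yet replicate 6 of that group, at 8.22, lay above 4 of the 6 aSYN samples. The mean was highest in aSYN, at 8.02 ± 0.34, followed by wt at 7.60 ± 0.64, Hsp70 at 7.41 ± 1.01 and aSYN/Hsp70 at 6.32 ± 1.20 (SD, n = 6). Between aSYN/Hsp70 and aSYN the log2 difference was -1.70 (SE 0.48, 95% interval -2.70 to -0.69). In a limma fit with no filter on dim probe sets its unadjusted p was 0.00202 and its adjusted p 0.157, which missed the threshold. Against wt the difference was -1.28 (95% interval -2.28 to -0.27, adjusted p = 0.396 in that limma fit) and against Hsp70 -1.09 (-2.09 to -0.09, adjusted p = 0.572). The interaction was -1.51 (-2.93 to -0.09, limma adjusted p = 0.750). Without the 4 arrays of low weight, which include aSYN/Hsp70 replicate 3 at the lowest value of 4.98, the difference from aSYN was -1.36. Because 16 was added before taking logs, log2 differences of a gene this dim are made smaller. Its lowest intensity was 25.2 in aSYN/Hsp70 and 135 in aSYN. How much of values this low is background was not tested.

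Top2a encodes topoisomerase II alpha, which untangles DNA for chromosome segregation, and was read from probe set 1454694_a_at. Its level ran from 8.19 to 9.28 in wt (median 8.61), from 7.999 to 9.01 in aSYN (median 8.45), from 5.53 to 8.61 in Hsp70 (median 8.27) and from 5.95 to 8.78 in aSYN/Hsp70 (median 8.29). Low values came from 3 arrays: Hsp70 replicate 3 at 5.79, Hsp70 replicate 6 at 5.53 and aSYN/Hsp70 replicate 6 at 5.95. Between Hsp70 (7.51 ± 1.45) and wt (8.66 ± 0.40, SD, n = 6) the log2 difference was -1.15 (SE 0.52, 95% interval -2.23 to -0.08), with an unadjusted limma p of 0.0367 and an adjusted p of 0.881. Both low Hsp70 arrays are among the 4 of low weight, and without those 4 the difference was -0.23. The other comparisons of Top2a had limma adjusted p of 0.499 or more. The 2 proliferation genes did not vary together: across the 24 arrays, with group means removed, Pearson's r was -0.36 and Spearman's rho -0.12, and r was -0.05 without the 2 arrays farthest from the median in Mki67.

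Nes encodes nestin, the intermediate filament of neural progenitors that is also made in vessel walls. Its probe set 1418289_at ran from 8.59 to 9.21 in wt (median 8.92), from 8.42 to 9.72 in aSYN (median 9.46), from 6.60 to 10.09 in Hsp70 (median 8.70) and from 7.33 to 9.61 in aSYN/Hsp70 (median 8.73). The spread was narrowest in wt (SD 0.21) and widest in Hsp70 (SD 1.24), which held both the lowest and the highest of all 24 values, in replicates 2 and 3. The largest of its differences in the 5 pairs of groups compared was -0.57 for aSYN/Hsp70 versus aSYN (SE 0.44, limma adjusted p = 0.467). The brightest probe sets of Nes and Top2a varied in opposite directions across the 24 arrays with group means removed (r = -0.62, rho = -0.64). These values share arrays and their quality, and rest on 1 probe set per gene. The dim probe sets of Nes had r of 0.02 and 0.20 with its brightest, and those of Top2a 0.03 and 0.45. Without the 2 arrays farthest from the median in Top2a, taken after group means were removed, r was -0.64. Those were not the 2 arrays with the lowest Top2a levels. Hsp70 replicate 3, of low weight, stayed in with Nes at 10.09 and Top2a at 5.79. The -0.64 therefore still holds an array extreme in both genes.

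Dlx1, Dlx2 and Dlx5 encode homeodomain factors of the ganglionic eminences and of the stream of cells from the subventricular zone to the bulb. Dlx2 (probe set 1448877_at) ran from 9.18 to 9.63 in wt (median 9.39), from 8.66 to 9.37 in aSYN (median 9.21), from 8.44 to 9.46 in Hsp70 (median 8.93) and from 8.46 to 9.79 in aSYN/Hsp70 (median 9.24). The wt samples were the tightest group, and their highest value lay above the highest of aSYN and of Hsp70. Between Hsp70 and wt the log2 difference was -0.45 (SE 0.20, 95% interval -0.86 to -0.04, unadjusted p = 0.0336, limma adjusted p = 0.881), and it was -0.33 without the 4 arrays of low weight. Between aSYN and wt it was -0.29 and between aSYN/Hsp70 and wt -0.24, both with limma adjusted p above 0.5.

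Dlx5 (probe set 1449863_a_at) ran from 9.91 to 10.67 in wt (median 10.40), from 9.91 to 10.30 in aSYN (median 10.17), from 9.45 to 10.85 in Hsp70 (median 9.87) and from 8.78 to 10.63 in aSYN/Hsp70 (median 10.26). Its mean in wt was above that of the other groups by 0.24 to 0.43 log2 units, none of which passed the limma test (adjusted p = 0.502 or more). The lowest value of all, 8.78, came from aSYN/Hsp70 replicate 4, the array of lowest weight.

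Dlx1 (probe set 1449470_at) ran from 10.89 to 11.36 in wt (median 11.06), from 10.69 to 11.19 in aSYN (median 11.09), from 10.69 to 12.04 in Hsp70 (median 11.26) and from 10.56 to 12.04 in aSYN/Hsp70 (median 11.20). The top of the 2 last ranges came from single arrays, 1 in Hsp70 and 2 in aSYN/Hsp70, at 12.001 to 12.04, and the next array in order stood at 11.52. The difference between aSYN/Hsp70 and aSYN was 0.33 (SE 0.22, limma adjusted p = 0.411).

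Sox11 and Sox4 encode the SOXC factors that switch on neuronal genes in newborn neurons. Sox11 (probe set 1431225_at) ran from 12.62 to 13.13 in wt (median 12.85), from 11.91 to 13.12 in aSYN (median 12.91), from 12.85 to 13.32 in Hsp70 (median 12.99) and from 12.78 to 13.53 in aSYN/Hsp70 (median 13.14). Its difference between aSYN/Hsp70 and aSYN was 0.33 (SE 0.17, 95% interval -0.03 to 0.68), and its limma adjusted p of 0.289 was the smallest among the brightest probe sets of the tested members. Without quantile normalisation, with each array centred on its log2 median instead, that difference was 0.04. The median over the probe sets in that fit was -0.23. The mean of all 6 Sox11 probe sets gave -0.10.

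Sox4 (probe set 1433575_at) had the smallest shifts among the brightest probe sets, while other Sox4 probe sets, given below, shifted more. It ran from 12.81 to 13.20 in wt (median 13.09), from 12.72 to 13.19 in aSYN (median 12.94), from 12.58 to 13.43 in Hsp70 (median 13.14) and from 12.43 to 13.53 in aSYN/Hsp70 (median 12.89). Its differences in the 5 pairs of groups compared lay between -0.13 and 0.04 (limma adjusted p of 0.809 or more). The samples spread more widely in aSYN/Hsp70 (SD 0.46) than in wt (SD 0.14), with 2 arrays at 13.53 and the lowest, replicate 4, at 12.43.

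Dcx encodes doublecortin, a microtubule-binding protein of migrating neurons, and is X-linked. Its brightest probe set 1418141_at ran from 10.38 to 11.97 in wt (median 11.25), from 10.13 to 12.08 in aSYN (median 11.67), from 11.02 to 11.92 in Hsp70 (median 11.79) and from 10.55 to 12.20 in aSYN/Hsp70 (median 11.45). The spread within aSYN alone, from 10.13 to 12.08, was wider than any difference between means, of which the largest was 0.46 for Hsp70 versus wt (SE 0.33, limma adjusted p = 0.881). Across the 24 arrays, with group means removed, this probe set had r = -0.47 with the sex contrast (Y-linked minus Xist probe sets). It thus tended to be lower where Y-linked probe sets stood higher relative to Xist. The other Dcx probe sets were not compared with the sex contrast. With that contrast as a covariate the difference between aSYN/Hsp70 and aSYN went from -0.13 to 0.05.

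**Figure D2:**
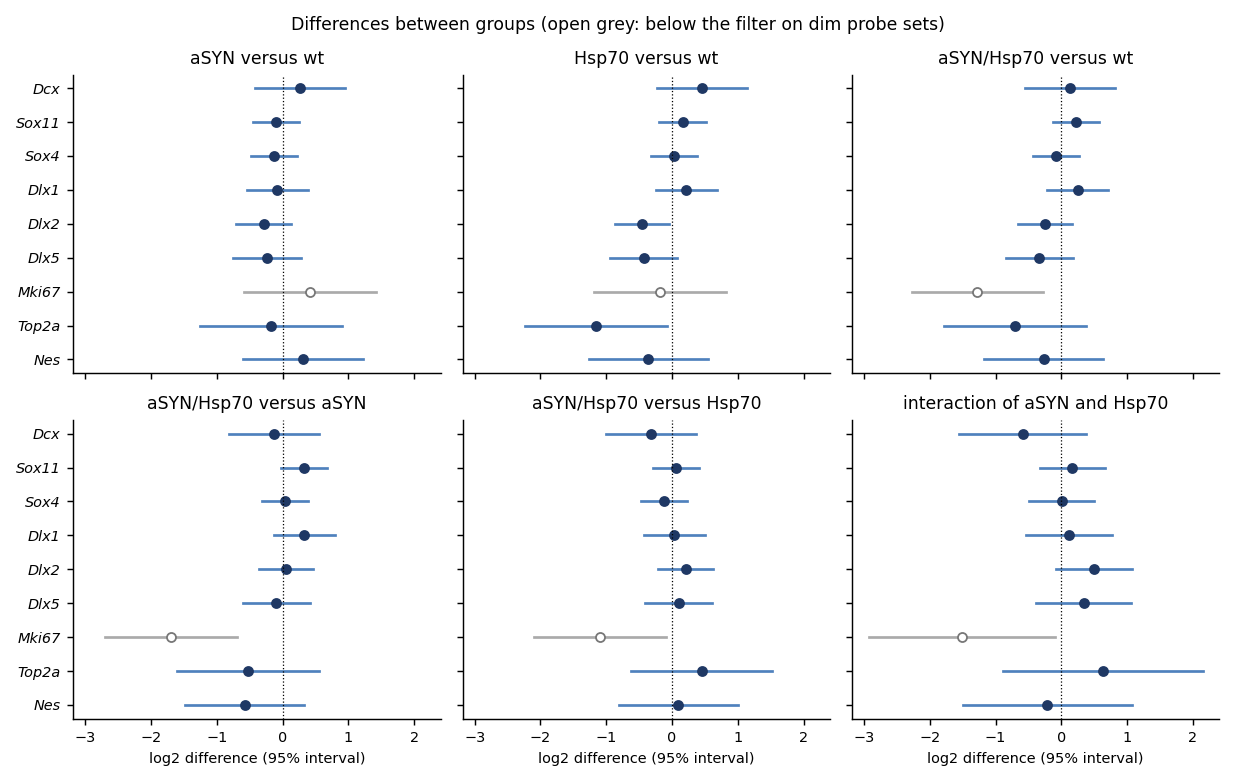
Log2 difference of each gene's brightest probe set with its 95% interval from limma, 1 panel per comparison, with Mki67 drawn open because it lay below the filter on dim probe sets. Intervals of the tested genes cross 0 except for Dlx2 (-0.86 to -0.04) and Top2a (-2.23 to -0.08) in Hsp70 versus wt, which did not pass after adjustment. Those of Mki67 leave out 0 in each comparison of aSYN/Hsp70 with another group and in the interaction, and did not pass either.

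Several genes had more than 1 probe set, and these differed from each other as much as the groups did. The 4 probe sets of Dcx, all tested, gave log2 differences from -0.13 to 1.27 for aSYN/Hsp70 versus aSYN, 3 of them higher, and from -0.79 to 0.27 for aSYN versus wt, 3 of them lower. The brightest was the exception in both comparisons. The 1.27 came from the dimmest of the 4 (SE 0.49, 95% interval 0.25 to 2.29, unadjusted p = 0.0169, limma adjusted p = 0.172). Across the 24 arrays with group means removed, the 3 dimmer probe sets had r of 0.04, 0.59 and -0.20 with the brightest, the -0.20 being that of the dimmest. In Hsp70 versus wt (0.19 to 0.65) and in aSYN/Hsp70 versus wt (0.13 to 0.48) all 4 were higher, and none was called.

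The 6 probe sets of Sox11 ran from -0.60 to 0.33 for aSYN/Hsp70 versus aSYN, with 2 higher and 4 lower, and the other 5 had r of -0.19 to 0.80 with the brightest. Of the 8 Sox4 probe sets, 5 were tested, and the 4 tested beside the brightest had r of 0.36 to 0.63 with it. The 3 dim ones had r of -0.09 to 0.13. For Top2a and Nes, 1 of 3 probe sets was tested, and the other 2 Top2a probe sets, both dim, were higher in aSYN/Hsp70 than in aSYN where the brightest was lower.

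**Figure D3:**
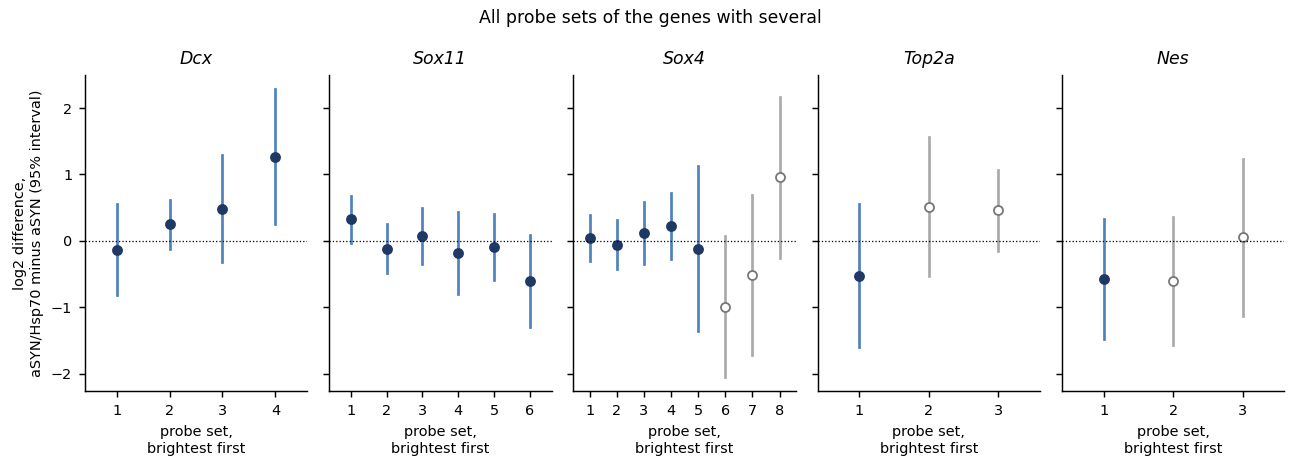
Log2 difference between aSYN/Hsp70 and aSYN with its 95% interval for every probe set of the 5 genes with several, ordered from the brightest, with open points for probe sets below the filter. The 4 Dcx probe sets run from -0.13 to 1.27, while the 5 tested Sox4 probe sets run from -0.12 to 0.23.

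Within groups, the 3 DLX genes and Sox4 had positive correlations with each other, some of which rested on 2 arrays. With group means removed, r over the 24 arrays was 0.63 for Dlx2 and Dlx5 (rho 0.45), 0.49 for Sox4 and Dlx1 (rho 0.29), 0.44 for Sox4 and Dlx5 (rho 0.29), 0.43 for Dlx1 and Dlx5 (rho 0.36), 0.40 for Sox4 and Dlx2 (rho 0.37) and 0.39 for Dlx1 and Dlx2 (rho 0.34). The 4 genes were not wholly apart from the other members: r was 0.42 for Sox4 and Mki67 (rho 0.47) and 0.30 for Sox11 and Dlx1 (rho 0.42). Their other pairs with members outside the 4 had r of 0.25 or less. Without the 2 arrays farthest from the median in the first gene named, Dlx2 and Dlx5 had r = 0.41 and Sox4 and Dlx1 r = 0.59. Dlx1 then had 0.21 with Dlx5 and 0.30 with Dlx2, and Sox4 had 0.12 with Dlx5 and 0.10 with Dlx2. On the same terms Sox4 and Mki67 had 0.42, and Sox11 and Dlx1 0.58. Sox4 and Sox11, the 2 SOXC genes whose promoters are printed above, had r = 0.00. These correlations describe the arrays, which share RNA quality and scaling.

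Markers of the olfactory bulb were among the marker lists that correlated with these 4 genes. The score was the mean log2 level, relative to wt, of the 5 tested markers of the bulb, namely Doc2g, Cdhr1, Eomes, Scgn and Nmb, out of 6 in the list (Tbx21 lay below the filter). The score ran from -0.82 to 0.83 in wt, from -0.66 to 0.01 in aSYN, from -0.57 to 1.57 in Hsp70 and from -0.44 to 1.56 in aSYN/Hsp70. At the top stood 3 arrays, Hsp70 replicate 5 (1.57), aSYN/Hsp70 replicate 1 (1.56) and aSYN/Hsp70 replicate 5 (1.53), and the next, wt replicate 6, was at 0.83. These 3 arrays held the 3 highest Dlx1 values, 12.04, 12.001 and 12.04. They held ranks 4, 1 and 2 for Sox4 (13.33, 13.53 and 13.53) and ranks 2, 3 and 4 for Sox11. For Dcx they ranked 19, 1 and 21.

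With group means removed, the r of the bulb score over the 24 arrays was 0.76 with Dlx1, 0.66 with Sox4, 0.66 with Dlx5 and 0.48 with Dlx2. It was between -0.08 and 0.23 with the other 5 members. Over the 21 arrays left without those 3, r was 0.32, 0.41, 0.44 and 0.46 for the same 4 genes. Over these 21 arrays it was 0.37 for Dcx and 0.26 for Nes, and between -0.26 and 0.03 for the other 3 members, so the 4 genes did not stand apart there. The score of 6 tested oligodendrocyte precursor markers had r over the 24 arrays of 0.39 with Dlx1, 0.53 with Sox4, 0.34 with Dlx5 and 0.48 with Dlx2. Over the 21 arrays those values were 0.28, 0.38, 0.45 and 0.62. Scores of 2 pathway lists described below went with these genes too. For the DLX interneuron list, r over the 24 arrays was 0.53 with Dlx1, 0.52 with Sox4, 0.82 with Dlx5 and 0.60 with Dlx2. For the immature neuron list it was 0.26, 0.61, 0.68 and 0.58. All 5 bulb markers were higher in aSYN/Hsp70 than in aSYN, by a median of 0.83, and 0 of them were called (background 0.718% of probe sets). Without the 3 arrays, a setting added after the data were seen, the Dlx1 difference between aSYN/Hsp70 and aSYN went from 0.33 to -0.01 and that of Sox4 from 0.04 to -0.23. Sox4 then differed from wt by -0.36 (limma adjusted p = 0.188). The part of bulb RNA in these differences was not tested.

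**Figure D4:**
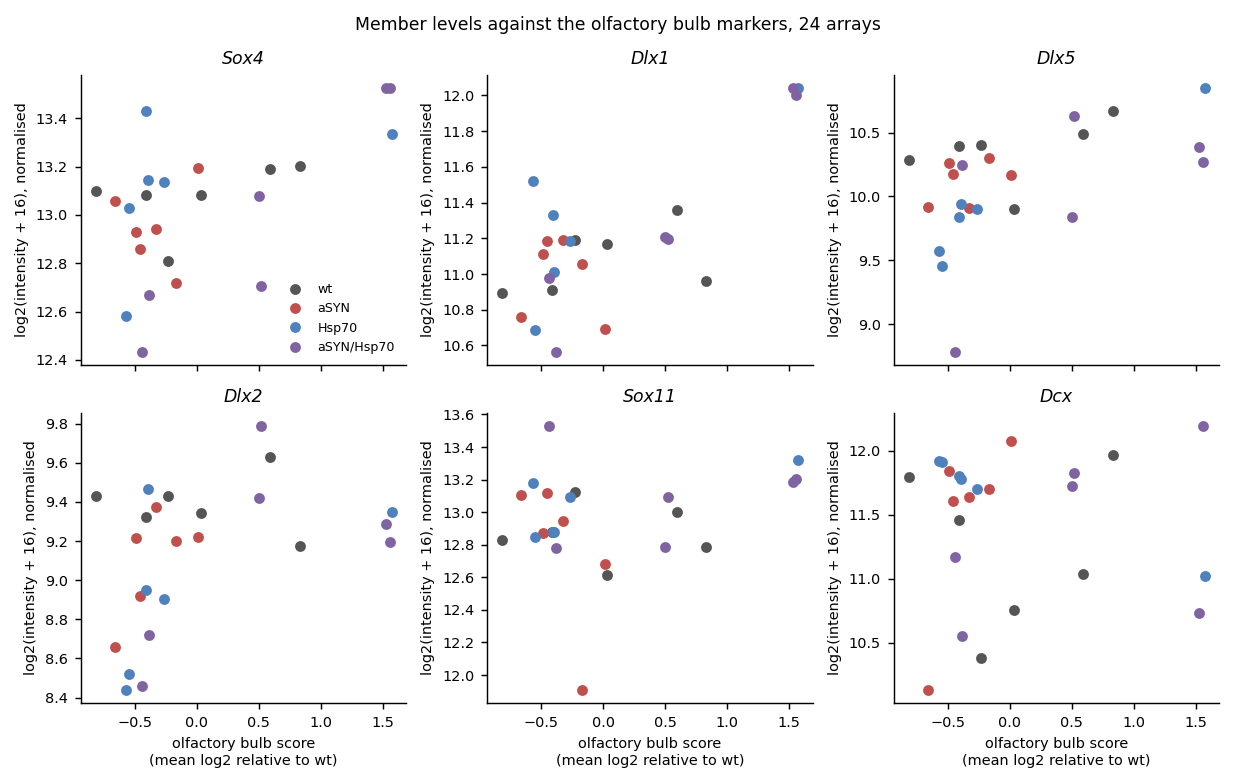
Log2 level of 6 genes (vertical) against the olfactory bulb score (horizontal, mean log2 of 5 markers relative to wt), 1 point per array coloured by group, over 24 arrays. The 3 arrays at scores of 1.53 to 1.57 hold the 3 highest Dlx1 values (12.001 to 12.04), while Dcx on them spans 10.74 to 12.20.

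Few genes of the wider pathways were called. Of 23 tested genes of the immature neuron list (25 in all), 1 was called, in aSYN/Hsp70 versus aSYN, and 7 were higher and 16 lower there, with a median of -0.12 against -0.031 over all probe sets. The call was Nnat, neuronatin, a small membrane protein of developing brain. Its log2 level ran from 15.06 to 15.55 in aSYN (median 15.49) and from 15.68 to 16.002 in aSYN/Hsp70 (median 15.89), with no overlap, and in wt from 15.20 to 15.74. The log2 difference was 0.47 (SE 0.11, limma adjusted p = 0.0438), and a separation like this held for 2.05% of probe sets. It lay just inside the threshold: the call was kept in 13 of 35 alternative settings, with adjusted p from 0.0354 to 0.244 and the difference from 0.29 to 0.51. Leaving out any of 12 single arrays lost it, namely aSYN replicates 2, 3, 4, 5 and 6, Hsp70 replicates 2, 4 and 5, and aSYN/Hsp70 replicates 1, 2, 3 and 4.

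Of the DLX interneuron list, 10 of 16 genes were tested and 0 were called in the 6 comparisons. The 3 smallest p belonged to Six3, a forebrain homeodomain factor (-0.43 in aSYN/Hsp70 versus aSYN, limma adjusted p = 0.109), Slc32a1, the vesicular GABA transporter (-0.32 in aSYN/Hsp70 versus wt, adjusted p = 0.297), and Dlx6, the neighbour of Dlx5 (0.87 in aSYN/Hsp70 versus Hsp70, adjusted p = 0.455). In Hsp70 versus wt 1 of the 10 was higher and 9 were lower, with a median of -0.16 against -0.017 over all probe sets, and in aSYN/Hsp70 versus wt 3 were higher and 7 lower.

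Of the neural progenitor list, 14 of 15 genes were tested and 0 were called. The smallest p was that of Nr2e1, the nuclear receptor TLX that maintains neural stem cells, at -0.46 in aSYN/Hsp70 versus aSYN (limma adjusted p = 0.137). Sox2, a stem cell factor, was at -0.37 in aSYN/Hsp70 versus wt (adjusted p = 0.296), and Pax6, a progenitor homeodomain factor, had an interaction of 0.97 (adjusted p = 0.540).

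Of the cell cycle list, 19 of 34 genes were tested and 0 were called, and in aSYN/Hsp70 versus aSYN 12 were higher and 7 lower, with a median of 0.05. Mcm4, a subunit of the replicative helicase, was at -0.52 in that comparison (limma adjusted p = 0.106), Rrm1, a subunit of ribonucleotide reductase, at 0.33 (adjusted p = 0.182), and Cdkn3, a cell cycle phosphatase, at 0.66 in aSYN/Hsp70 versus wt (adjusted p = 0.324).

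All 8 paralogs of the members were tested and 0 were called. In aSYN/Hsp70 versus Hsp70, 7 were higher and 1 lower, with a median of 0.15, led by Dlx3 at 0.95 (limma adjusted p = 0.290). Sox12, the third SOXC gene, was at 0.46 in aSYN/Hsp70 versus aSYN (adjusted p = 0.227). Among the lists of other cell types and regions, the 1 call was Cldn5, a tight junction protein of vessels, at 0.71 in aSYN/Hsp70 versus aSYN (limma adjusted p = 0.0460), which was kept in 8 of 35 alternative settings (adjusted p from 0.0180 to 0.200) and lost without any of 17 single arrays (wt replicates 2 to 5, aSYN replicates 2 to 6, Hsp70 replicates 1, 2 and 4, and aSYN/Hsp70 replicates 1 to 5).

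The genes most like each tested member were found among 12927 other genes by r over the 24 arrays with group means removed. For Dlx1 they were Pcbp3 (r = 0.81), Gpsm1 (0.78) and Nmb (0.74), the last a marker in the bulb score. For Dlx5 they were Rbm8a (0.82), Gng4 (0.81) and A430027H14Rik (0.80), and for Dlx2 Ccl6 (0.76), Selenoh (0.76) and Mdc1 (0.76). For Sox4 they were Cnot2 (0.84), Tmem216 (0.82) and Adk (0.82), and for Sox11 Thbd (0.83), Mideas (0.77) and Fgf11 (0.74). For Dcx they were Fam120c (0.82), Cldn34c1 (0.76) and Tmem88 (0.72). For Top2a they were Lingo2 (0.79), Kat14 (0.78) and Kdm5b (0.77), and for Nes Ext2 (0.79), Col6a2 (0.77) and Cfap410 (0.74). No member was among the 3 genes most like another.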

How the data were processed

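The authors deposited a linear intensity for each probe set on each array. The values themselves show that arrays had been scaled to a common mean of 2500 after trimming 2% of probe sets at each end. No source used here names the program that made them. Intensities were transformed as log2(intensity + 16) and quantile normalised. Of 45101 probe sets, 64 controls and the 18015 dimmest (40%) were left out and 27022 tested. Probe sets with 1 gene symbol numbered 34958, with several 932 and with none 9211. All 24 arrays entered 1 fit with a mean per group (limma 3.58.1, R 4.3.3, lmFit and eBayes), and Benjamini-Hochberg adjustment ran over all probe sets tested, with calls at 0.05. The fit was tested on simulated data.

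The members and gene lists were chosen with earlier results of these data known. Named genes were all members, the called genes of each pathway list or else its 3 smallest p, and the 3 genes most like each tested member. Cldn5 was named after its values were seen. The number of arrays limits the precision. Alternatives were no quantile normalisation (each array centred on its log2 median instead), an offset of 1, no filter, only the groups compared, array weights, no arrays of weight under 0.5, a sex covariate, other choices of probe set, the replicate number as a term, and each array left out. Promoters came from RefSeq (GRCm38.p6), where 8 of 9 members matched. Figures were drawn with matplotlib 3.10.9.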

Additional observations from a re-analysis of the deposited data

Results flagged for a closer look

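In 5 of the 36 member groups, 1 array lay far from the other 5 by Dixon's ratio of its gap to the range of the group, above the 95% critical value for 6 arrays. Chance flags about 1 in 20 groups. Dcx on aSYN replicate 4 stood at 10.13 with its nearest neighbour at 11.60 (ratio 0.758). Dcx on Hsp70 replicate 5 stood at 11.02 against 11.70 (ratio 0.761). Sox11 on aSYN replicate 5 stood at 11.91 against 12.68 (ratio 0.638). Sox4 on wt replicate 4 stood at 12.81 against 13.08 (ratio 0.690). Dlx5 on Hsp70 replicate 5 stood at 10.85 against 9.94 (ratio 0.649). The olfactory bulb score was the clearest: Hsp70 replicate 5 stood at 1.57 against -0.27 for the next array of its group (ratio 0.858), and this is the same array as the high Dlx5 and the low Dcx.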

How the results depend on the processing

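The count of members called was 0 in each of the 6 comparisons under every setting that was run, and the lowest limma adjusted p of any member value that was tested was 0.157. Of 1881 alternative values of member differences, 86 had the opposite sign to the reported one, none of them past the threshold, and 24 of the 54 gene and comparison pairs never changed sign. The causes of these changes were not tested. Many of the 1881 values could not change sign, so the 86 do not measure how stable the signs were. A difference of group means stays the same without the filter, with only the groups compared, or with the replicate block. It also stays the same when an array of a group not compared is left out. Calls of all probe sets moved from 194 to 43 in aSYN/Hsp70 versus aSYN when no filter was applied. In the setting without quantile normalisation, each array was centred on its log2 median instead. The median difference in that fit was -0.27 for aSYN/Hsp70 versus wt, -0.23 versus aSYN and -0.17 for Hsp70 versus wt, so signs there are relative to that. With probe sets averaged per gene the reversed values were Dcx -0.22 and Sox11 0.014 for aSYN versus wt, Dcx 0.47, Sox11 -0.10, Sox4 -0.041, Top2a 0.15 for aSYN/Hsp70 versus aSYN, Dcx 0.071 and Sox4 -0.17 for the interaction, Sox11 -0.086 for aSYN/Hsp70 versus wt, Sox11 -0.12 for Hsp70 versus wt. With the sex covariate the reversed values were Dcx 0.053 for aSYN/Hsp70 versus aSYN. Without quantile normalisation the reversed values were Dcx -0.16, Dlx1 -0.042, Sox11 -0.094 for aSYN/Hsp70 versus wt, Dlx1 -0.063 and Sox11 -0.057 for aSYN/Hsp70 versus Hsp70, Sox11 -0.036 and Sox4 -0.17 for Hsp70 versus wt, Sox4 -0.25 for aSYN/Hsp70 versus aSYN, Sox4 -0.082 for the interaction. Without the 3 arrays of highest bulb score, a setting added after the data were seen, the reversed values were Dlx1 -0.014, Dlx2 -0.0020, Sox4 -0.23 for aSYN/Hsp70 versus aSYN, Dlx1 -0.16 for aSYN/Hsp70 versus Hsp70, Dlx1 -0.095 and Nes 0.022 for aSYN/Hsp70 versus wt, Dlx1 -0.081, Nes 0.0089, Sox4 -0.22 for the interaction, Sox4 -0.013 for Hsp70 versus wt. With array weights the reversed values were Dlx5 0.084 for aSYN/Hsp70 versus aSYN, Nes 0.16 and Top2a -0.31 for the interaction, Sox4 0.084 and Top2a -0.37 for aSYN/Hsp70 versus Hsp70, Sox4 0.15 for aSYN/Hsp70 versus wt. Without the 4 arrays of weight under 0.5 the reversed values were Dlx5 0.065 for aSYN/Hsp70 versus aSYN, Nes 0.13 and Top2a -0.62 for the interaction, Sox11 -0.045, Sox4 0.039, Top2a -0.80 for aSYN/Hsp70 versus Hsp70, Sox4 0.12 for aSYN/Hsp70 versus wt. With the brightest probe set on each array the reversed values were Nes -0.070 for aSYN/Hsp70 versus Hsp70, Top2a 0.13 for aSYN/Hsp70 versus aSYN. No sign was reversed with an offset of 1. None could be reversed when dim probe sets were kept or with only the groups compared in the fit, because the group means are the same. Leaving out each array in turn reversed 41 values in 18 pairs. For aSYN/Hsp70 versus aSYN the ranges were Dcx -0.40 to 0.032, Dlx2 -0.083 to 0.18, Dlx5 -0.22 to 0.15, Sox4 -0.068 to 0.15. For aSYN/Hsp70 versus wt the ranges were Dcx -0.037 to 0.30, Sox4 -0.20 to 0.023. For aSYN/Hsp70 versus Hsp70 the ranges were Dlx1 -0.11 to 0.19, Dlx5 -0.022 to 0.35, Nes -0.29 to 0.40, Sox11 -0.022 to 0.13. For the interaction the ranges were Dlx1 -0.027 to 0.27, Nes -0.60 to 0.093, Sox11 -0.0070 to 0.24, Sox4 -0.10 to 0.12. For Hsp70 versus wt the ranges were Mki67 -0.47 to 0.095, Nes -0.67 to 0.030, Sox4 -0.033 to 0.14. For aSYN versus wt the ranges were Sox11 -0.17 to 0.072.

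The labels do not say whether same-numbered samples share anything besides the number. The mean correlation of same-numbered arrays, with group means removed, was between -0.02 and 0.06 for the 6 numbers. A mean over all probe sets cannot decide whether they were paired. With the replicate block, 0 members were called in each comparison and 0 signs changed. Each number occurs once in every group, so the block could not change a difference or its sign. The calls of Nnat and Cldn5 were lost in 10 of 11 settings other than leaving out an array, the replicate block included.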
